A study of Homo sapiens with 14 samples.

Results

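The 37 glycolysis and lactate genes followed here were listed by name, isoenzyme by isoenzyme, with earlier results of these data known, and no measured value set which genes entered. They cover the glucose transporters SLC2A1 and SLC2A3, each step from hexokinase to pyruvate kinase, lactate dehydrogenase, the monocarboxylate transporters SLC16A1 and SLC16A3, the pyruvate dehydrogenase complex with its kinases, and the gluconeogenic phosphatases FBP1 and G6PC3. All 37 were found among the 63677 gene IDs of each bulk table. Gene counts were available for 12 bulk RNA-seq libraries of H9, an established human embryonic stem cell (hESC) line. The groups were 2 libraries of hESC kept in mTSER Plus on Matrigel, 3 of hESC-derived endoderm expressing dCAS9-KRAB without an sgRNA (endoderm control), 3 of endoderm expressing dCAS9-KRAB with the sgRNA against LTR5 elements (LTR5 CRISPRi), 2 of foregut control and 2 of foregut with LTR5 CRISPRi. dCAS9-KRAB is a cutting-dead Cas9 fused to a repressor domain, and it was delivered by a lentiviral vector under puromycin selection. Endoderm was made with Activin A at 100 ng/ml for 3 days and the GSK-3 inhibitor CHIR-99021 at 5 μM on the first day and 0.5 μM on the second. Foregut was made by a separate, commercial pancreatic differentiation protocol, with 3 days of endodermal and 3 further days of foregut differentiation. The factors and doses of that protocol are not given in the sources used here. The foregut libraries were grouped by their titles, because the status given for them in the labels, hESC for the controls and endoderm without sgRNA for LTR5 CRISPRi, did not match those titles. A single preparation of H9 gastruloids, made from 800 cells per well with CHIR-99021 at 3 μM and harvested at 72 h, gave single-nucleus RNA counts.

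Glycolysis splits glucose into pyruvate in the cytosol. Pyruvate is then either reduced to lactate by lactate dehydrogenase and exported by monocarboxylate transporters, or oxidised in mitochondria through pyruvate dehydrogenase, which the PDK kinases switch off. Most steps have several isoenzymes encoded by separate genes with different tissue patterns, and pluripotent stem cells are known for high glycolytic activity. Several of these genes are textbook targets of the hypoxia-inducible factors (HIF), whose oxygen-sensitive subunit is mainly controlled at the protein level.

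The bulk libraries held between 11583063 and 37152434 reads on genes. Mitochondrial genes held between 8.30% and 34.7% of those reads, with the highest share in a foregut library. Reads on the 1057 LTR5_Hs, LTR5B and LTR5 integrants ran from 23.3 to 25.2 per 1000000 gene reads in endoderm control and from 12.6 to 17.5 in endoderm with LTR5 CRISPRi. In foregut they were 21.5 and 18.0 in the controls and 10.0 and 13.3 with LTR5 CRISPRi, so the targeted elements were lower in every library with the sgRNA. All 8 definitive endoderm markers rose from hESC to endoderm control, among them SOX17, which had no read in hESC and 241 counts per 1000000 (CPM) ± 39.3 (SD, n = 3) in endoderm control. TTR, a foregut marker, had no read before the foregut stage and 1747 CPM ± 293 (n = 2) in foregut control. The summed level of 6 pluripotency markers ran from 1390 to 1700 CPM in hESC and from 1309 to 1866 in endoderm control, so the ranges overlapped. Of these 6, 2 were higher and 3 lower in endoderm control than in hESC. In foregut control they summed to 171 and 220 CPM, with 5 of the 6 lower than in endoderm control and 1 higher. The summed level of 7 mesoderm markers ran from 71.2 to 74.8 CPM in hESC, 178 to 416 in endoderm control and 79.9 to 88.3 in foregut control, with 6 of the 7 higher in endoderm control than in hESC and 6 of the 7 lower in foregut control than in endoderm control. Trophoblast markers (4 found, ELF5 at 0 in foregut control) summed to 67.4 and 109 CPM in foregut control against 2.84 to 6.75 in endoderm control. Apart from the pluripotency sum between hESC and endoderm control, these markers moved with the stages. Their part in the results below was not tested. In bulk RNA, fewer cells of a type and less RNA per cell cannot be told apart.

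The glycolysis and lactate genes rose together from hESC to endoderm and fell from endoderm to foregut. Together they took 1.77% and 1.81% of the gene reads in the hESC libraries, between 4.42% and 5.55% in endoderm control, and 1.204% and 1.58% in foregut control. The mitochondrial share was lowest in endoderm control, at 8.30% to 14.4%, against 16.9% and 25.5% in hESC and 17.6% and 29.0% in foregut control. Without mitochondrial reads in the total, a choice made after the data were seen, the members took 2.18% and 2.38% in hESC, between 5.11% and 6.05% in endoderm control and 1.70% and 1.92% in foregut control. From hESC to endoderm control, 23 of 37 members rose and 2 fell in edgeR's quasi-likelihood test (adjusted p under 0.05 over all genes), where 19.6% of the 20818 genes tested rose and 18.3% fell. With a fold change over 2 required as well, 21 members rose, against 14.2% of all genes. The median log2 fold change was 1.30 over the members and 0.04 over all genes tested. From endoderm control to foregut control, 27 members fell and 6 rose, where 18.0% of the 21466 genes tested fell and 15.9% rose, and 26 members fell by more than 2-fold against 15.0% of all genes. The median was -1.82 over the members and -0.09 over all genes.

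The same step with LTR5 CRISPRi at both stages used other libraries throughout. There, 26 members fell and 5 rose from endoderm to foregut, where 14.9% of the 20735 genes tested fell and 14.1% rose. Of the 27 members that fell without the sgRNA, 25 (92.6%) were among the 26 that fell with it, of which they made up 96.2%. The same overlap was not counted over all genes, so this one is a description only. GAPDH and PFKFB2 passed only without the sgRNA and PFKM only with it. Against hESC, 12 members were lower and 5 higher in foregut control (18.4% and 17.1% of the 21191 genes tested), and the median was -0.41 over the members and -0.01 over all genes. The comparisons of endoderm control with hESC and with foregut control share the endoderm libraries, and those of foregut control with endoderm and with hESC share the foregut libraries. The labels name dCAS9-KRAB for the endoderm libraries and not for hESC. Medium and stage therefore changed together at each step, with the vector and its puromycin selection between hESC and endoderm. Between endoderm and foregut the differentiation protocol changed as well. The parts of these cannot be told apart. The study's methods call its RNA-seq replicates biologically independent.

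**Figure D1:**
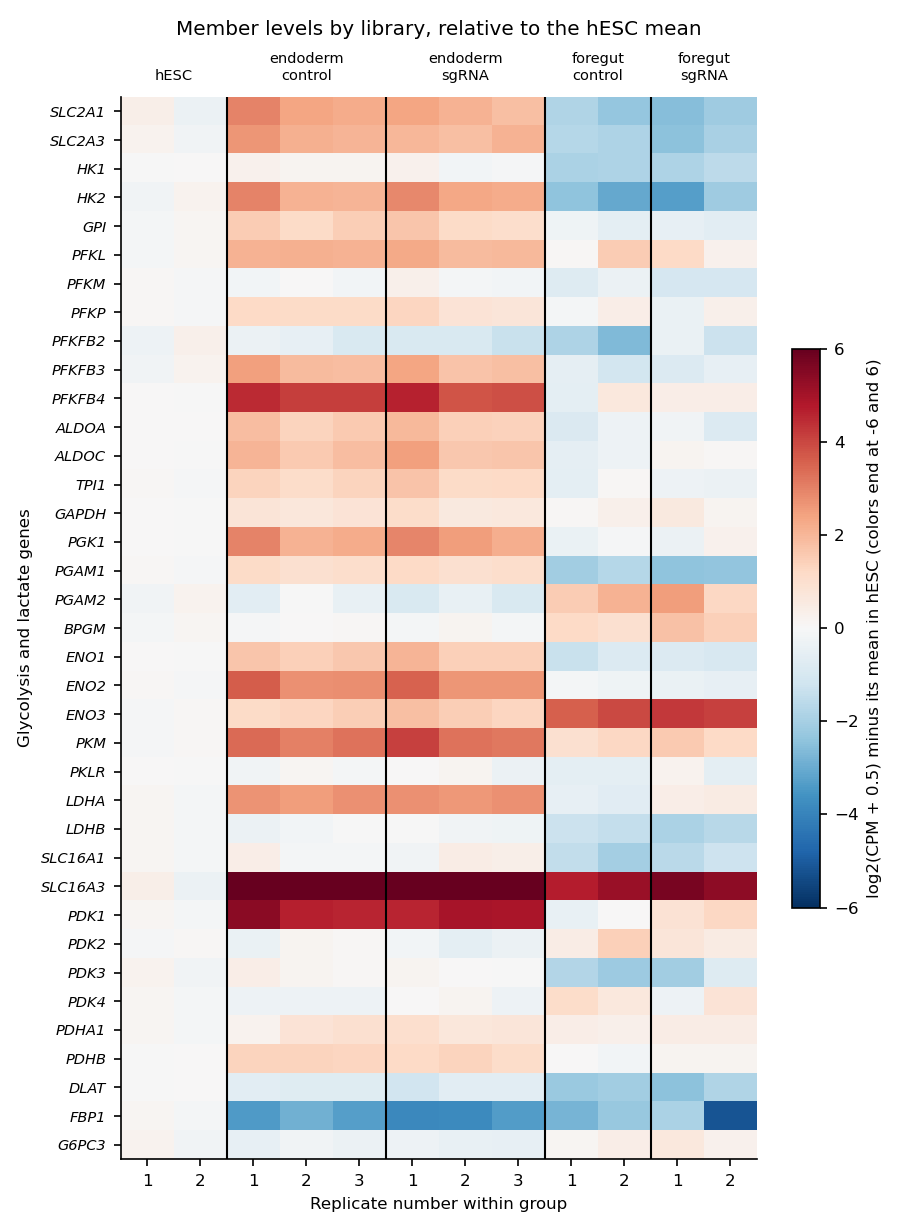
Level of each of the 37 members (rows) in each of the 12 bulk libraries (columns, grouped), as log2(CPM + 0.5) minus the mean of the 2 hESC libraries, with red above hESC and blue below. Most rows are red in the 6 endoderm libraries and pale or blue in the 4 foregut libraries, while SLC16A3 and ENO3 stay red in foregut and HK1, PFKM, LDHB and SLC16A1 are pale in endoderm.

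RNA of most genes for glucose uptake and trapping followed this course. SLC2A1 (GLUT1, chr1:43391024-43424564, minus strand, GRCh37) stood at 285 and 180 CPM in hESC, 1806, 1160 and 1076 CPM in endoderm control and 64.0 and 44.9 CPM in foregut control. The 3 groups did not overlap, with endoderm highest and foregut below hESC. SLC2A1 rose by 2.56 on the log2 scale in endoderm (SE 0.27, adjusted p = 2.06e-06) and then fell by 4.63 (SE 0.33, adjusted p = 1.91e-05). SLC2A3 (GLUT3), the high-affinity transporter, rose by 2.32 and fell by 4.08, and per exon length it was above SLC2A1 in hESC (80.5 RPKM ± 17.2 against 35.2 ± 11.2, n = 2) and in endoderm control (393 ± 98.2 against 204 ± 60.3, n = 3). The hexokinases, which phosphorylate glucose, split by isoenzyme. HK2 stood at 62.4 and 81.8 CPM in hESC and 561, 301 and 297 CPM in endoderm control, a rise of 2.45 (SE 0.28, adjusted p = 5.24e-06). It then dropped to 13.2 and 7.98 CPM in foregut control, which gave -5.19 (SE 0.42). HK1 gave 0.23 (SE 0.17, adjusted p = 0.304) from hESC to endoderm and -2.09 from endoderm to foregut.

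The enzymes around fructose 1,6-bisphosphate, the committed step, were also split. Among the phosphofructokinases, PFKL (liver type) rose by 2.14 and PFKP (platelet type) by 1.2 in endoderm, while PFKM (muscle type) gave -0.07 (SE 0.18, adjusted p = 0.787). PFKL was tight in endoderm control, at 335, 339 and 331 CPM, and wide in foregut control, at 81.5 and 226 CPM. Its fall in foregut (-1.12, SE 0.37, adjusted p = 0.0426) lost its call without any single endoderm control library. The PFKFB enzymes make and break fructose 2,6-bisphosphate, the strongest activator of phosphofructokinase. PFKFB4 stood at 12.8 and 12.2 CPM in hESC and at 284, 232 and 227 CPM in endoderm control. That rise was 4.34 on the log2 scale (SE 0.22, adjusted p = 1.43e-09), and it fell by 4.17 in foregut. PFKFB3 rose by 2.13 and fell by 2.94. PFKFB2 gave -0.61 (adjusted p = 0.109) in endoderm and fell by 1.96 in foregut, at levels of 10.4 CPM or less in every library, a call that did not hold without endoderm control library 1.

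Most genes of the remaining steps down to pyruvate rose in endoderm, by unequal amounts. In endoderm control GPI, ALDOA, ALDOC, TPI1, PGK1, PGAM1, ENO1, ENO2, ENO3, PKM and GAPDH all rose, between 0.79 for GAPDH and 3.27 for PKM. PKM, the main pyruvate kinase outside liver and red cells, had 621 and 669 CPM in hESC and 6870, 5214 and 6092 CPM in endoderm control. It fell by 2.12 to 1259 and 1523 CPM in foregut control, which was still 1.11 above hESC on the log2 scale (SE 0.20, adjusted p = 0.00456). PGK1, the first ATP-yielding enzyme, rose by 2.52 (SE 0.25) and fell by 2.72. GAPDH, often used as a reference gene, stood at 5420 and 5119 CPM in hESC, 9115, 8309 and 9347 CPM in endoderm control and 5614 and 6408 CPM in foregut control. Its rise was called (adjusted p = 0.00142), and its fall (-0.57, adjusted p = 0.0176) lost its call when any single library was left out.

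The enolases took different courses, with ENO1 the most abundant per exon length throughout (259 RPKM ± 63.9 in foregut control, n = 2, against 13.2 ± 0.93 for ENO2 and 16.4 ± 3.01 for ENO3). ENO1, the ubiquitous form, rose by 1.59 and fell by 2.63, and ENO2, the neuronal form, rose by 3.15 and fell by 3.30. ENO3, the muscle form, rose at both steps, from 4.50 and 4.94 CPM in hESC to 10.97, 12.3 and 14.1 CPM in endoderm control and 61.2 and 79.5 CPM in foregut control. No 2 of those 3 groups overlapped, and foregut was 3.90 above hESC on the log2 scale (SE 0.30, adjusted p = 0.00015). BPGM, which makes 2,3-bisphosphoglycerate, gave 0.04 (adjusted p = 0.902) in endoderm and rose by 1.08 in foregut. PGAM2, the muscle mutase, rose by 3.54 in foregut to 2.18 and 3.46 CPM, but all 837 bases of its exons lie opposite exons of DBNL, and the strand setting of the counting is not given in the sources used here, so its reads are uncertain. PKLR, the liver and red cell pyruvate kinase, had no more than 0.363 CPM in any library and was listed at 0 in both foregut controls.

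The genes for lactate dehydrogenase and lactate export were also split by isoenzyme. LDHA, the form associated with lactate production, lies at chr11:18416107-18429972 (plus strand, GRCh37). It stood at 1014 and 872 CPM in hESC, 6126, 5320 and 6262 CPM in endoderm control and 661 and 592 CPM in foregut control, so that endoderm was apart from both other groups. It rose by 2.68 (SE 0.19, adjusted p = 3.96e-08) and fell by 3.24 (SE 0.18, adjusted p = 6.53e-06). LDHB, the form associated with lactate use, had 2038 and 1755 CPM in hESC and 1467, 1710 and 1881 CPM in endoderm control, groups that overlapped (-0.14, SE 0.18, adjusted p = 0.58). It then fell by 1.21 in foregut control. SLC16A3 (MCT4, chr17:80175810-80219005, plus strand), the exporter typical of strongly glycolytic cells, had the highest fold change of the members in endoderm. It went from 2.64 and 1.44 CPM in hESC to 301, 240 and 213 CPM in endoderm control (6.98, SE 0.32, adjusted p = 4.25e-10). In foregut control it was lower than in endoderm, at 64.3 and 89.5 CPM (-1.71), and still 5.24 above hESC. SLC16A1 (MCT1), the general lactate carrier, gave 0.12 (SE 0.20, adjusted p = 0.668) in endoderm and fell by 1.82 in foregut. Basigin (BSG), the chaperone of both carriers, rose by 0.60 in endoderm, from 783 CPM ± 93.3 (n = 2) to 1161 ± 57.6 (n = 3).

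The promoters of LDHA and LDHB are shown because these isoenzymes parted, with that of ALDOC, which rose by 1.88, as another with many matches. Each line gives the 250 bases before the annotated start in RefSeq (GRCh38.p14), 5′ to 3′ in the direction of the gene, and capitals mark the core of the HIF binding motif, ACGTG or GCGTG on either strand. LDHA is chr11:18394313-18394562 (plus strand), ALDOC chr17:28576896-28577145 (minus strand) and LDHB chr12:21657843-21658092 (minus strand).
LDHA: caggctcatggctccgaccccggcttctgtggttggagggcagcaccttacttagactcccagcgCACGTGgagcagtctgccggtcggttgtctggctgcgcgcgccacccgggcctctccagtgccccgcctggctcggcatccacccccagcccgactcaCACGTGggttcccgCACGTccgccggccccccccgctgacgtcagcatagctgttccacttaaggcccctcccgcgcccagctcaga
ALDOC: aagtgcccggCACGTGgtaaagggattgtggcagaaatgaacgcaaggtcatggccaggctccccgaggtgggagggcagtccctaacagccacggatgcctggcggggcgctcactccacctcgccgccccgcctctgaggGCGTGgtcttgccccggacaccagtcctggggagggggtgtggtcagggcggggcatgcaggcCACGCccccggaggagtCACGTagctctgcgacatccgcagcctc
LDHB: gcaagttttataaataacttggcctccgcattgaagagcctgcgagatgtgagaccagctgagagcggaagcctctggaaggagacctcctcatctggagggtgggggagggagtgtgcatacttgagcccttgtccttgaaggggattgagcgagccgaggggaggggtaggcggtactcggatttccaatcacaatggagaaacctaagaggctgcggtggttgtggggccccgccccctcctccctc
In these 250 bases LDHA and ALDOC held 5 cores each, in which the palindrome CACGTG counts as a core on each strand. LDHB held none there and 1 in the window of 300 bases that reaches past the start, where LDHA held 6 and ALDOC 5. LDHA has another annotated start, not printed here, whose window of 300 bases held 1 core, as that of LDHB did. An accessible peak of the gastruloid nuclei overlapped all 3 promoters. A match is a description of the letters and not a site of binding.

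Over the promoters of 300 bases (250 before and 50 after the start), 34 of the 37 members matched the table, with 66 windows in all, since several genes have more than 1 start. A core was in 66.7% of the members' windows, against 48.4% of all 35097 promoters in the table. ACGTG, the core without the weaker GCGTG, was in 40.9% against 21.4%. By gene, 21 of the 22 members that rose in endoderm and 11 of the 12 others held a core in at least 1 window. The exceptions were PGAM1, which rose, and PDK4. G6PC3, which was not called in endoderm, held 4 cores in each of its windows, so the promoters printed above do not stand for all members. The members' promoters were also richer in CG pairs, with a median of 24 CG pairs against 14 over all promoters. Among all promoters within the middle 50% of the members' CG counts, 64.6% held a core and 27.3% held ACGTG. An accessible peak overlapped 74.2% of the members' windows, 58.4% of all promoters and 81.7% of the CG-matched ones.

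RNA of genes at the gate between lactate and oxidation also moved. PDK1, which inactivates pyruvate dehydrogenase, lies at chr2:173420101-173473397 (plus strand, GRCh37). It had 18.2 and 15.1 CPM in hESC, 730, 431 and 409 CPM in endoderm control and 12.0 and 16.7 CPM in foregut control. It rose by 5.01 (SE 0.30, adjusted p = 5.72e-09), fell by 5.19 (SE 0.37) and gave -0.22 in foregut control against hESC (SE 0.31, adjusted p = 0.595). The other kinases differed from it. PDK3 gave 0.24 (adjusted p = 0.369) in endoderm and fell by 2.24 in foregut, while PDK2 gave 0.00 (SE 0.25, adjusted p = 0.99) and rose by 1.06, although 38.6% of its exon length lies opposite SAMD14. PDK4 had no read in the 3 endoderm controls and 44 reads in the foregut controls, at least 12.5-fold higher with the endoderm floor set at 3 reads over the group, a call that did not hold without any 1 of the 3 endoderm controls. Of the complex itself, PDHB rose by 1.38 and fell by 1.42, PDHA1 rose by 0.73 (adjusted p = 0.0165) and DLAT fell at both steps, by 0.67 and 1.48. The call for PDHA1 did not hold without endoderm control library 3 or without either hESC library. FBP1, which runs the phosphofructokinase step backwards, went against the pathway in endoderm, falling by 3.51 from 19.2 and 16.2 CPM to between 1.196 and 1.98 CPM (adjusted p = 1.57e-07). G6PC3, the ubiquitous glucose-6-phosphatase, gave -0.31 (adjusted p = 0.212) and rose by 0.59 in foregut (adjusted p = 0.048), with 23.9% of its exon length opposite HDAC5. The foregut calls of G6PC3 and PDK2 did not hold without any 1 of the 3 endoderm controls or without foregut control library 2.

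**Figure D2:**
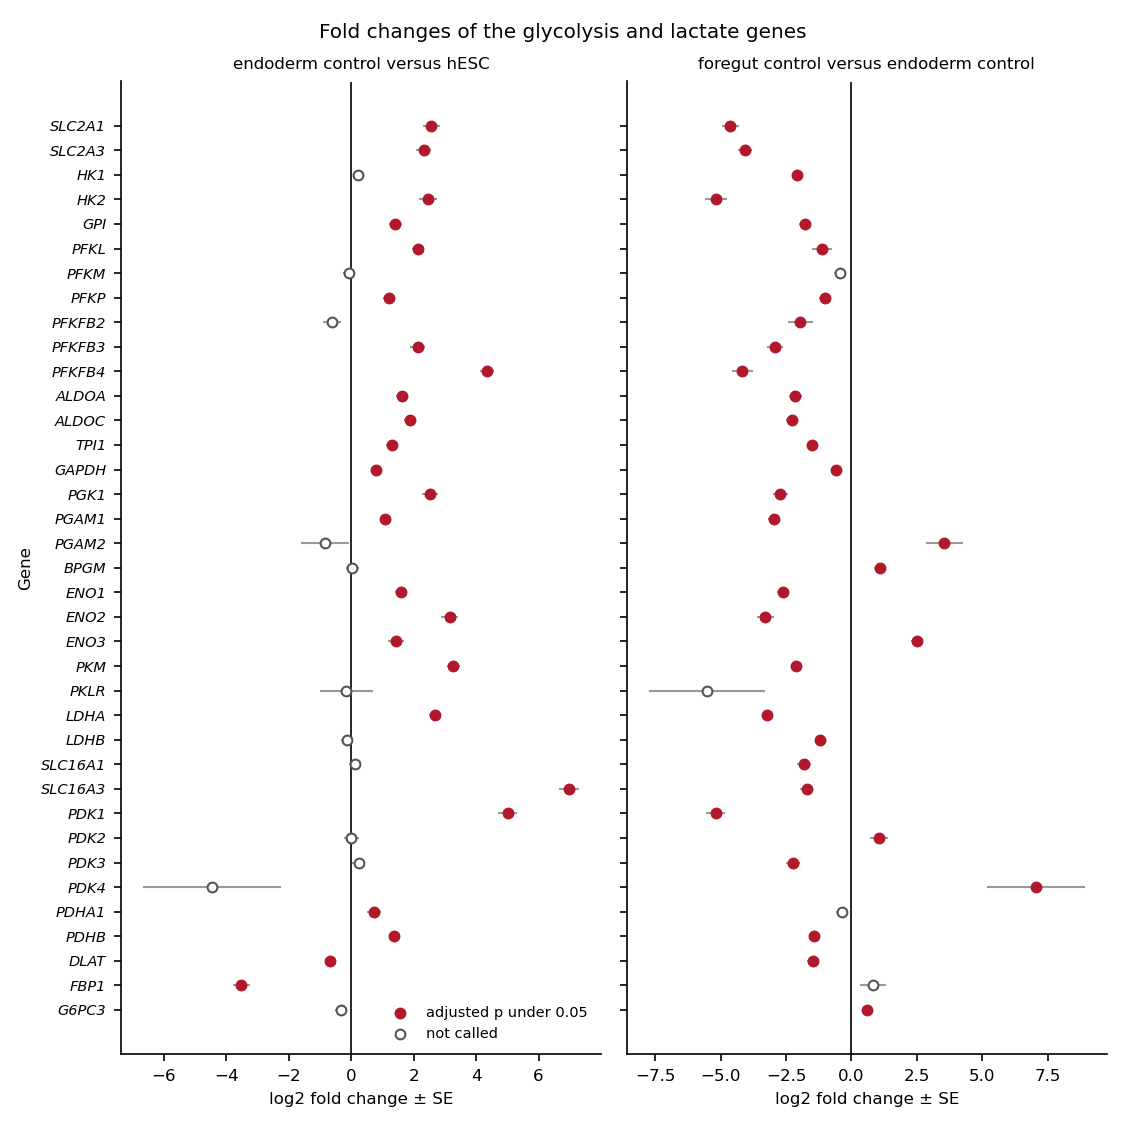
log2 fold change with its SE for each member, endoderm control over hESC at left and foregut control over endoderm control at right, with filled points for adjusted p under 0.05. SLC16A3 (6.98) and PDK1 (5.01) lead at left, and PGAM2, BPGM, ENO3, PDK2, PDK4 and G6PC3 are the called members to the right of 0 in the right panel.

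Isoenzyme shares were taken per library from levels per exon length (RPKM), each isoenzyme divided by the sum over its family. LDHA made up 19.7% and 19.8% of lactate dehydrogenase in hESC, between 60.6% and 67.4% in endoderm control and 29.7% and 30.01% in foregut control. SLC16A3 went from 0.29% ± 0.092 (SD, n = 2) of the 2 monocarboxylate transporters in hESC to 26.0% ± 1.38 (n = 3) in endoderm control, and it stayed at 28.1% ± 10.2 (n = 2) in foregut control, where both genes had dropped. HK2 went from 22.7% ± 3.06 of the hexokinase pair in hESC to 56.6% ± 7.60 in endoderm control and 13.8% ± 4.45 in foregut control. Among the phosphofructokinases PFKM held 45.3% ± 2.73 in hESC and 18.0% ± 0.87 in endoderm control, and PFKL 34.0% ± 3.67 and 62.2% ± 0.36. PFKFB4 rose from 31.8% ± 5.88 to 71.7% ± 2.10 of its family. ENO3 was between 0.134% and 0.208% of enolase in hESC and endoderm control and 5.72% ± 0.27 in foregut control. Of 11 isoenzymes followed, 9 had shares in the endoderm controls that lay wholly above or wholly below those in hESC. Shares within a family depend on each other, and few libraries can part without a difference between stages. No such count was made over other gene families, so this one is a description only. The shares depend on the length used: with the canonical transcript in place of all exons, SLC16A3 held 42.4% in endoderm control and HK2 42.1%, PFKM and PFKL held 39.0% and 38.3% in hESC, and 10 of the 11 isoenzymes separated endoderm control from hESC.

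**Figure D3:**
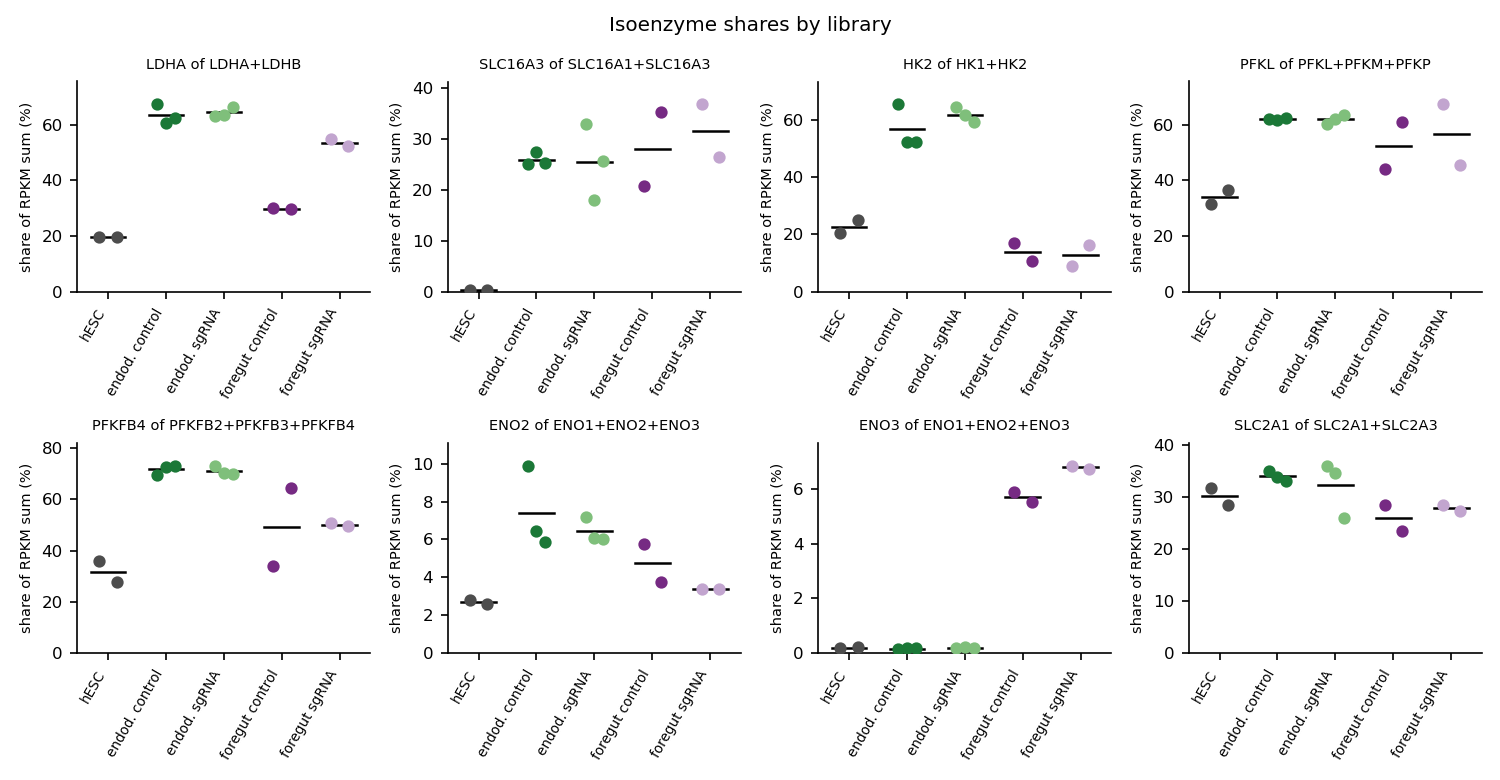
Share of each named isoenzyme in the RPKM sum of its family (percent, each panel with its own axis from 0), with a point for each library and a bar for the group mean. LDHA sits at 19.7% to 19.8% in hESC, above 60% in all 6 endoderm libraries, near 30% in foregut control and above 52% in foregut with LTR5 CRISPRi.

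With LTR5 CRISPRi, the main edgeR fit called no member at either stage. In foregut, voom, DESeq2 and the edgeR fit of all 12 libraries called LDHA. In endoderm with the sgRNA against endoderm control, 0 of 37 members were called by edgeR, voom or DESeq2. The main edgeR fit called 0.0343% of the 20407 genes tested, and 0 members had an unadjusted p under 0.05 there. The median was 0.00 over the members. The summed share of the members was between 4.62% and 5.72% of gene reads with the sgRNA and between 4.42% and 5.55% without it. SLC2A1 had the smallest unadjusted p after PDK4 (-0.44, SE 0.22, adjusted p = 0.992), and LDHA gave 0.07 (SE 0.17). At the foregut stage, the main edgeR fit called 0 of 37 members, against 0.165% of the 20044 genes tested, with 2 at an unadjusted p under 0.05. Those 2 were LDHA and PDK1. LDHA stood at 1223 and 1307 CPM with the sgRNA against 661 and 592 CPM without it (1.01, SE 0.28, adjusted p = 0.151). voom (adjusted p = 0.0485) and DESeq2 (adjusted p = 0.0177) called LDHA, and over the alternatives its adjusted p ran up to 0.9999. PDK1 stood at 30.2 and 40.0 CPM against 12.0 and 16.7 CPM (1.29, SE 0.42, adjusted p = 0.441). LDHB was 500 and 589 CPM against 763 and 693 CPM (-0.42, SE 0.29, adjusted p = 0.9996), so that the LDHA share was 54.8% and 52.4% with the sgRNA against 29.7% and 30.01% without. The difference of the sgRNA effect between foregut and endoderm was 0.93 for LDHA (SE 0.26, adjusted p = 0.293) and 1.38 for PDK1 (SE 0.39, adjusted p = 0.296). That test called 0 members, against 0.194% of the 22708 genes tested, with 3 at an unadjusted p under 0.05, and it was run with edgeR only.

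An LTR5 integrant lay within 100 kb of 7 members and overlapped 2 of them. No such count was made over all genes, so this one is a description only. Those 2 were LDHB and PFKFB3, and the others were PFKP (3893 bases away), PGAM1 (8073), TPI1 (14912), PFKL (16274) and ENO2 (26924). PFKFB3 gave -0.10 (SE 0.22) with the sgRNA in endoderm and 0.14 (SE 0.49) in foregut, and LDHB 0.00 (SE 0.17) and -0.42. In foregut PGAM1 had 77.7 and 79.9 CPM with the sgRNA against 96.1 and 125 without it. ENO2 had 44.8 and 48.85 CPM against 53.9 and 59.55. Neither was called. The foregut libraries with and without the sgRNA overlapped for PFKFB3, PFKP, TPI1 and PFKL. In endoderm they overlapped for all 37 members. LDHA has its nearest integrant 491692 bases away and PDK1 2299341.

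Around the pathway, the hypoxia-inducible genes outside glycolysis moved furthest. Of 20 such genes, 18 rose and 0 fell in endoderm control, where 19.6% of all genes tested rose and 18.3% fell, with a median of 2.81 against 0.04 over all genes. The 3 leading ones were ANKRD37 (5.74), DDIT4, an inhibitor of mTORC1 signalling (5.62, from 11.8 CPM ± 0.212 to 568 ± 36.4), and NDRG1 (5.46). In foregut control 13 of the 20 fell against endoderm, where 18.0% of all genes tested fell and 15.9% rose. They were led by BNIP3, a mitophagy receptor (-4.38, from 993 CPM ± 307 to 47.7 ± 9.50), DDIT4 (-3.85) and P4HA1, a collagen prolyl hydroxylase (-2.74). ADM, the vasodilator adrenomedullin, rose by 2.18. Against hESC, 11 of the 20 were still higher in foregut control and 0 were lower (17.1% and 18.4% of all genes tested). Their median was 1.15, whereas the members' median was -0.41. The list was chosen as known HIF targets. HIF1A itself, named after its values were seen, fell by 0.57 in endoderm and by 1.51 in foregut at the RNA level.

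Of all genes tested, for the counts of other branches that follow, 19.6% rose and 18.3% fell in endoderm control, and 15.9% rose and 18.0% fell in foregut control. Of 17 genes of the tricarboxylic acid cycle, 3 rose in endoderm control (led by IDH3G, 1.06) and 3 fell (led by SDHD, -1.55), and in foregut 10 fell and 1 rose. That one was IDH2, the mitochondrial NADP-dependent enzyme, from 70.7 CPM ± 17.5 to 291 ± 88.0. Of 12 glycogen genes tested, 6 rose and 3 fell in endoderm, among them PGM1, which links glycogen to glycolysis (3.18, from 72.6 CPM ± 2.26 to 642 ± 111, and -4.77 in foregut), and UGP2, the source of UDP-glucose (-1.45). All 3 called genes of the 7 for pyruvate entry into mitochondria fell in endoderm, led by the carrier subunit MPC1 (-1.51), and the partner subunit MPC2 rose by 2.07 in foregut. Of 8 pentose phosphate genes 1 rose (PGLS, 0.89) and 1 fell (RPE, -0.84) in endoderm, and TKT fell by 1.86 in foregut. PSAT1 and PSPH of serine synthesis fell in endoderm, by 1.29 and 0.94, and of 3 gluconeogenesis genes tested PC fell by 0.57. Among 20 other glucose transporters and isoenzymes tested, 3 rose and 5 fell in endoderm. SLC2A12 (GLUT12) rose by 4.07 in foregut, from 2.09 CPM ± 0.185 to 35.2 ± 4.47. SLC2A14 and PGAM4 rose with SLC2A3 and PGAM1, to which they are near-identical copies, and their reads are uncertain.

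Of the 19 regulators of glycolytic genes tested, 3 rose and 7 fell in endoderm, where 19.6% of all genes tested rose and 18.3% fell. ARNT, the partner subunit of HIF, rose by 1.43, and MYCN fell by 2.61 from 53.8 CPM ± 3.52 to 8.61 ± 1.59. ARRDC4, a glucose-responsive arrestin that limits glucose uptake, fell by 2.64 in endoderm and rose by 4.27 in foregut, opposite to SLC2A1 at both steps. MYC fell by 6.08 in foregut, to 0.308 CPM ± 0.435 (n = 2). EPAS1, which encodes HIF-2α, rose by 2.50 in foregut to 5.61 CPM ± 0.566. No gene of these lists was called with LTR5 CRISPRi in endoderm or foregut in the main edgeR fit.

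In gastruloid nuclei the members took 0.483% of all unique molecular identifiers (UMIs). The table held 3646 nuclei, of which 3422 were kept, with a median of 16302 UMIs, and 34 of the 37 members were in it, without PGAM2, PKLR and PDK4. There was 1 preparation, so no value has a replicate and the intervals cover counting error only (exact Poisson, 95%). LDHB had 746 UMIs per 1000000 (739 to 753) and LDHA 101 (98.8 to 104), SLC16A1 had 199 and SLC16A3 6.85, and GAPDH had 1391. Each UMI tags the end of a molecule, so these levels are not scaled by length, and they are not on the scale of the bulk levels.

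Nuclei were clustered without the 37 members, and 9 of the 10 clusters held at least 100 nuclei. Over these 9, 26 of the 34 members differed by less than 3-fold between their highest and lowest cluster, among them LDHA (73.3 to 134 UMIs per 1000000), LDHB (519 to 994), GAPDH (1148 to 2019) and PKM (189 to 337). The other 8 were SLC2A1, SLC2A3, PFKP, ENO2, ENO3, ALDOC, SLC16A3 and FBP1, of which ENO2 had the widest ratio (76.4), resting on 1 UMI in its lowest cluster, and FBP1 had none in 2 clusters. ENO2, ENO3, ALDOC and FBP1 had 189, 181, 133 and 119 UMIs over these clusters, so counting error weighs on their ratios. No such count was made over all genes of like depth, so the 26 of 34 is a description only. SLC2A1 had 548 UMIs per 1000000 (534 to 562, 5980 UMIs) in cluster 1, an axial mesoderm-like group where all 6 axial markers were raised, including TBXT, SHH and NOTO. It had 25.3 (21.2 to 29.95, 134 UMIs) in cluster 4, one of the paraxial mesoderm-like groups. SLC2A3 was highest elsewhere, with 306 (293 to 319) in cluster 3, a neuromesodermal-like group with 4 of 6 markers raised (SOX2, NKX1-2, CDX2 and FGF17, but neither TBXT nor WNT3A), and 18.5 to 58.0 in the other 8. SLC2A1 had 212 in cluster 3 and 221 in cluster 7, which stayed unnamed.

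PFKP and ENO2 also differed between clusters. PFKP had 2.97 UMIs per 1000000 (1.86 to 4.49, 22 UMIs) in the neuromesodermal-like cluster 3 and 42.1 (38.0 to 46.5, 390 UMIs) in the paraxial mesoderm-like cluster 0, with 9.16 in the axial mesoderm-like cluster 1. ENO2 had 14.4 (11.8 to 17.4, 107 UMIs) in cluster 3 and no more than 3.02 in the other 8. SLC16A1 was highest in cluster 6, a segmenting mesoderm-like group with all 4 markers raised, at 358 (342 to 374), against 124 in cluster 1. PDK3 was highest in the axial mesoderm-like cluster, at 95.6, and FBP1 had 7.69 (6.14 to 9.52, 84 UMIs) there and no more than 1.89 in the others. Median UMIs per nucleus were between 12961 and 23816 in these clusters, except cluster 5 with 7824, which had the highest GAPDH, TPI1 and LDHB and had the mitotic genes CCNB2, PTTG1 and CDC20 among its top 10 by fold. The last cluster held 33 nuclei, too few to compare, with SLC2A1 at 481.

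**Figure D4:**
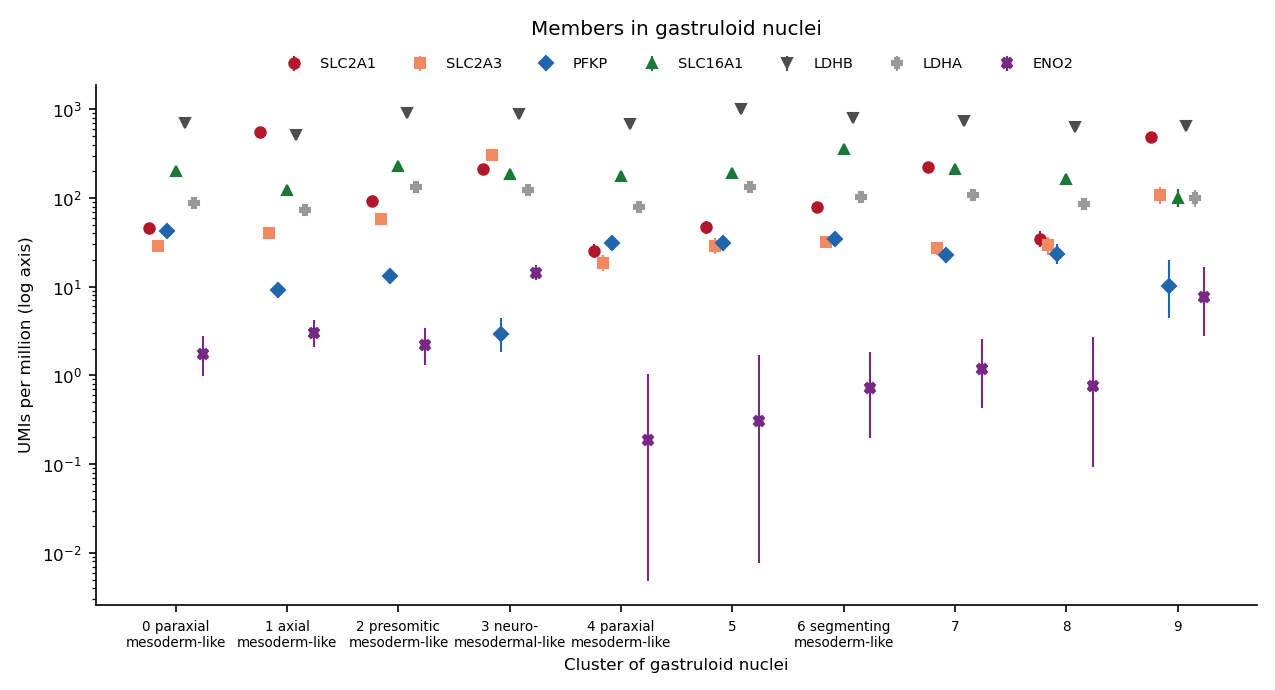
UMIs per 1000000 (log axis) of 7 members in each of the 10 clusters of gastruloid nuclei, with exact Poisson 95% intervals for counting error only, clusters named where markers allowed. SLC2A1 peaks in cluster 1 (548), SLC2A3 and ENO2 in cluster 3 (306 and 14.4), where PFKP is at 2.97, while LDHA runs from 73.3 to 134 and LDHB from 519 to 994.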

How the data were processed

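RNA was measured in 12 bulk libraries and in the nuclei of 1 gastruloid preparation. Bulk reads were mapped to hg19 (HISAT2), and the authors used featureCounts to count those with a unique position, over genes and transposable elements at once. The deposited values are raw counts. Nuclei were counted by the authors with Cell Ranger on hg38, as deposited UMI counts, with peak positions on hg38 as well. Libraries were made with a stranded mRNA kit. The members and gene lists were chosen with earlier results of these data known.

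Genes with at least 3 reads in 1 library entered the quasi-likelihood test of edgeR 4.0.16 (TMM scaling, 2 groups a fit, 2-sided, Benjamini-Hochberg over all genes) in R 4.3.3. limma 3.58.1 (voom), DESeq2 1.42.0, other scaling factors and filters, a fit of all 12 libraries, a replicate block and leaving out each library were alternatives. The fit was tested on simulated data. CPM and RPKM use TMM library sizes and GENCODE exons lifted to GRCh37. Counts sampled between 11583063 and 37152434 reads a library, and for a gene at 0 the floor was 3 reads over the group. Genes without a symbol (8012 of 63677) stayed in the tests and were not named. All members may be named, and of the other lists those that were called and averaged 1 CPM or more, up to the 3 largest rises and falls per list and comparison.

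Nuclei with at least 1000 UMIs, 200 genes and at most 25% mitochondrial UMIs were clustered with scanpy 1.11.5 (Leiden, resolution 0.5). A marker counted as raised at over 1.5 times the other nuclei, after a small constant was added to both levels. It also had to reach a minimum level in the cluster. Of the nuclei kept, 5 were marked as doublets (0.146%) and stayed in; so low a share may mean that the caller did not work. Promoters came from RefSeq (GRCh38.p14).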

Additional observations from a re-analysis of the deposited data

How the results depend on the processing

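The counts of members called kept their size in most comparisons. With each library left out in turn, the number of members called ran from 24 to 26 for endoderm control against hESC, from 0 to 0 for LTR5 CRISPRi in endoderm, from 0 to 1 for LTR5 CRISPRi in foregut, from 27 to 32 for foregut control against endoderm control, from 23 to 32 for the same step with LTR5 CRISPRi and from 15 to 23 for foregut control against hESC. For LTR5 CRISPRi in foregut, where 0 members were called, voom called 1 and DESeq2 called 1 (LDHA in both), and the fit of all 12 libraries called 2 (LDHA and PDK1). The 1 call without foregut LTR5 CRISPRi library 1 was FBP1, which had no read in the remaining library. FBP1 also changed direction there for foregut against endoderm with LTR5 CRISPRi, from 1.31 to -7.01 on the log2 scale, not called before, and it was 2.25 without library 2. Of the calls, 24 of 25 in endoderm against hESC held under every alternative, 27 of 33 in foregut control against endoderm control, 23 of 31 with LTR5 CRISPRi and 15 of 17 in foregut control against hESC. The calls for BPGM and PGAM2 in foregut against hESC did not hold without hESC library 1 or 2. Isoenzyme shares apart from hESC numbered between 9 and 10 under the alternatives. The members' share of nuclear UMIs was 0.573% without mitochondrial UMIs.

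Replicate numbers did not pair the bulk samples: the correlation of same-numbered deviations was 0.029 and 0.043 in endoderm against hESC, -0.034, -0.05 and 0.018 for LTR5 CRISPRi in endoderm, and, with 2 pairs only, 0.179 and 0.151 for foregut control against endoderm control and 0.15 and 0.149 for the same step with LTR5 CRISPRi. With the replicate number as a block, 24, 0, 0, 30, 29 and 21 members were called in the order of the comparisons above. For LTR5 CRISPRi in foregut the correlation was -0.166, and with the numbers crossed, an alternative chosen after seeing the data, 2 members were called. The cause of these differences was not tested. Depth limits the low members: PKLR, PDK4 and PGAM2 were near the floor of 3 reads in several groups.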
